A study of Mus musculus with 2 samples.

Results

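The genes of the proteasome and its regulators were chosen by name, as every gene whose symbol begins with Psm, a letter from a to g and a digit. The rule took 48 of the 12860 genes in the table of whole bone marrow RNA. They comprise 14 genes of the constitutive core, 5 of the immunoproteasome, 17 of the regulatory cap, 10 of assembly chaperones and other regulators, the testis core subunit Psma8, and Psmc3ip, which matches the name rule but encodes a meiotic recombination partner and no proteasome subunit. The rule itself uses no measured value.

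The RNA came from 2 C57BL/6 mice with 1 library each. A 14 week old female carried the Srsf2 P95H change on 1 allele (P95H), and a 12 week old male had unchanged Srsf2 (WT). Both mice carried R26CreERT2, a tamoxifen-activated Cre recombinase expressed from the broadly active Rosa26 locus, and both were given tamoxifen in vivo. Srsf2 encodes a splicing factor whose P95H form occurs in human myeloid neoplasms. Genotype, sex, age and mouse cannot be told apart, no difference has a replicate check, and no p-value was computed.

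The proteasome is the protease that degrades proteins tagged with ubiquitin. Its barrel-shaped core has outer rings of alpha subunits and inner rings of beta subunits, 3 of which cut peptide bonds, and a cap of ATPases and lid subunits binds, unfolds and feeds in the substrate. Interferon-gamma and some blood cell types replace the catalytic beta subunits with Psmb8, Psmb9 and Psmb10, giving the immunoproteasome, and add the activator made of Psme1 and Psme2, which favours peptides fit for MHC class I.

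Of each pair of values below, the P95H value stands first and the WT value second. Levels are the authors' CPM, that is, counts divided by a scaled library size. Ratios are P95H over WT with a 95% counting interval, which covers counting error only and not the variation between mice. Differences are P95H minus WT on log2(CPM + 1), a scale that understates the difference of low genes. The libraries totalled 42366695 and 44733445 listed counts, of which the 48 genes took 0.300% (exact binomial interval 0.298 to 0.301) and 0.319% (0.317 to 0.320).

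Sequence upstream of 2 constitutive catalytic genes is shown because both hold the core of the antioxidant response element, through which the transcription factor Nfe2l1 is known to drive proteasome genes. The bases lie before the RefSeq start site in build GRCm38.p6, read 5′ to 3′, with the match to TGACNNNGC in capitals. For Psmb5 the stretch is chr14:54618023-54618245 on the minus strand, without the 27 bases next to the start that an annotated exon covers, and for Psmb6 it is chr11:70525107-70525356 on the plus strand.
Psmb5: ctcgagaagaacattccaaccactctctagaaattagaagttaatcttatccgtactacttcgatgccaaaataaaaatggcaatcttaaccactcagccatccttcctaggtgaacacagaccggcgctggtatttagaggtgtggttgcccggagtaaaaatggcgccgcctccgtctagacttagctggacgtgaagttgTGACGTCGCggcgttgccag
Psmb6: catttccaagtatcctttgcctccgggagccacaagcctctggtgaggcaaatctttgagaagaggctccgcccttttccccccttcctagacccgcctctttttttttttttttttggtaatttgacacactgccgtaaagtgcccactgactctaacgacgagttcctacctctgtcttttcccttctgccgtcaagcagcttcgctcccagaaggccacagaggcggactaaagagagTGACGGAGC
The match began 47 bases before the start site in Psmb5 and 9 bases before it in Psmb6. RefSeq promoters were found for 40 of the 48 genes, and 5 of the 40 (12.5%) held TGACNNNGC on either strand within 250 bases before the start. These were Psmb5, Psmb6, Psmc6, Psmd12 and the chaperone gene Psmd9. Of all 32851 listed promoters 10.2% held it. Here and for the motifs below, the proteasome share counts genes with a match in any listed promoter. The share of all promoters counts each promoter, so the 2 are not strictly comparable. The interferon-stimulated response element, searched as GAAA, any 2 bases and GAAA, was found in Psmb3, Psmd4 and Psmd9, 7.5% of the 40 genes against 2.98% of all promoters, and in none of the immunoproteasome genes within this window. The gamma-activated site TTCNNNGAA was found in Psmb8 and in Psmg1, 5% against 7.02%, and the CCAAT box in 14 of the 40 genes, 35% against 33.8%. The motifs overlap each other in no printed stretch, and a match is a description of these letters.

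Proteasome subunits differed little between the libraries, and most lay slightly above the median of all genes in the P95H library. On log2(CPM + 1) none of the 48 differed by 2-fold or more, where 1.76% of all genes were at least 2-fold higher and 2.1% at least 2-fold lower. At 1.5-fold, 1 of 48 was higher, the low-count gene Psma8, and 0 were lower, against 7.05% and 8.08% of all genes. The median difference of the 48 genes was 0.12, and 38 lay above the median of all genes (0.00), where 50% lie by definition. Of all genes that reach a CPM of 10 in 1 library, 56.3% lay above that same median, and their own median difference was 0.04. Of the 43 proteasome genes that reach this CPM, 36 lay above the median of all genes. Marrow was not sorted, so fewer cells of a type and less RNA per cell cannot be told apart.

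**Figure D1:**
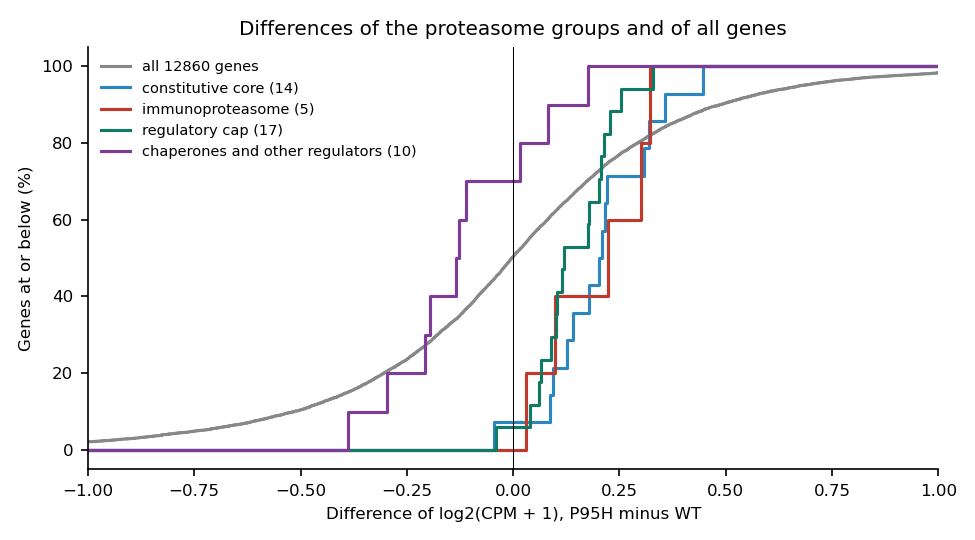
Cumulative share of genes (%) against the difference of log2(CPM + 1), P95H minus WT, for all 12860 genes and for 4 groups of proteasome genes, with the number of genes in brackets. The core, immunoproteasome and cap curves stand to the right of 0 with medians of 0.20, 0.22 and 0.12, and the chaperone and regulator curve to the left with a median of -0.13.

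The medians of the subunit groups and of the regulator group lay on opposite sides of the median of all genes, at small distances. The constitutive core had a median difference of 0.20, with 13 of 14 genes above the median of all genes, the immunoproteasome 0.22 with 5 of 5, and the cap 0.12 with 16 of 17. Assembly chaperones and other regulators had a median of -0.13, with 3 of 10 above and 7 below. Each of these medians lay within the middle 50% of all genes, which ran from -0.233 to 0.225. The 36 core, immunoproteasome and cap genes also kept close together. Their differences ran from -0.04 (Psmb1) to 0.45 (Psmb5), and the middle 50% of them spanned 0.13, where that of all genes reaching a CPM of 10 in 1 library spanned 0.41.

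**Figure D2:**
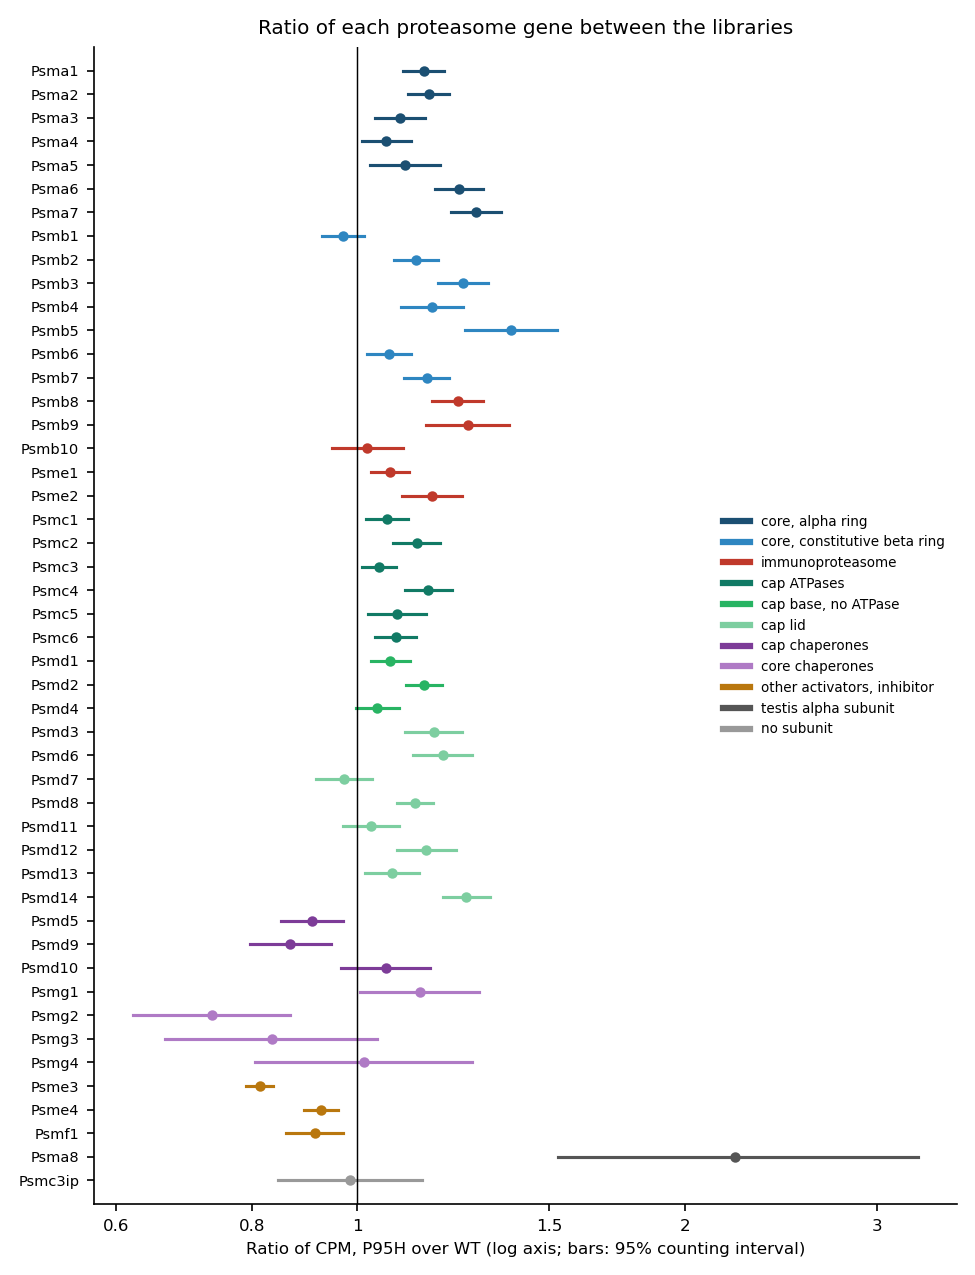
Ratio of CPM, P95H over WT, on a log axis for the 48 genes, coloured by role, with bars for the 95% counting interval. Subunits of the core and cap cluster between 0.970 (Psmb1) and 1.38 (Psmb5), several regulators lie below 1, and Psma8 stands at 2.22 with a wide interval.

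Where 0 falls depends on how the libraries were scaled. The authors' scaling puts the median of all genes at 0.00, plain totals of the listed counts at -0.18, and totals that leave out haemoglobin and the most abundant genes at -0.13. On the authors' scaling 38 of the 48 genes lay above 0, as did 49.7% of all genes. Both other scalings shift genes downward, so the 10 genes below 0 stay below by construction. Of the 38 above 0, 18 stayed above under all 3 scalings, and the sign of the remaining 20 depended on the scaling. Some of the 18 stayed only just above on plain totals, such as Psmd2 and Psma1, each at 0.01. Because the shift is shared by all genes, the count above their median was 38 of 48 under each scaling.

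**Figure D3:**
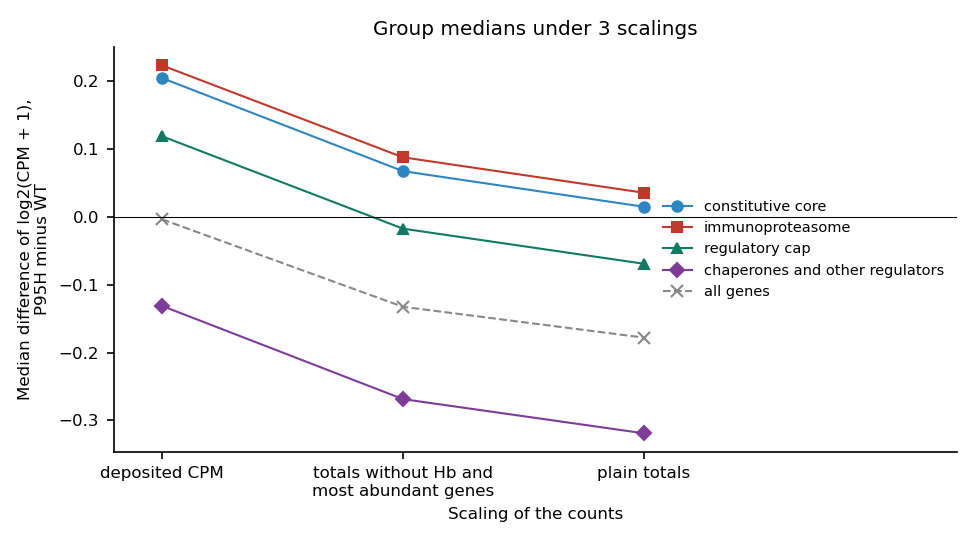
Median difference of log2(CPM + 1), P95H minus WT, of 4 groups of proteasome genes and of all genes under 3 scalings of the counts. All lines move down together, from 0.20 to 0.02 for the core and from -0.13 to -0.32 for chaperones and other regulators, and, since the shift is shared, each group keeps its side of the line for all genes.

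All 7 alpha ring genes, whose products gate the entrance to the core, had ratios above 1 on the authors' scaling. Psma7 had 2807 counts against 2635, 70.7 against 55.0 CPM, a ratio of 1.28 (1.22 to 1.36). Psma6 followed with 76.2 against 61.4 CPM and a ratio of 1.24 (1.18 to 1.31). These were the highest of the ring, above 84.1% and 80.9% of all genes. Psma4 was lowest, at 66.6 against 62.7 CPM and a ratio of 1.06 (1.01 to 1.12). Between them lay Psma2 (1.16), Psma1 (1.15), Psma5 (1.11) and Psma3 (1.09). Psma3, Psma4 and Psma5 share near-identical stretches with annotated pseudogenes, so counting could have split their reads. Psma3, Psma4 and Psma5 also had a sign that depended on the scaling.

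The constitutive beta ring held both ends of the range of subunits. Psmb5, the chymotrypsin-like catalytic subunit, had 886 counts against 772, 22.3 against 16.1 CPM, and its ratio of 1.38 (1.26 to 1.53) was the highest of the 36 subunits, above 88.5% of all genes. It shares a near-identical stretch with a processed pseudogene, so its reads too could have been split. Psmb6, the caspase-like subunit, had 3341 counts against 3771, 84.2 against 78.8 CPM, a ratio of 1.07 (1.02 to 1.12). Psmb7, the trypsin-like subunit, had 3355 counts against 3495, 84.5 against 73.0 CPM, a ratio of 1.16 (1.10 to 1.21). The interval of Psmb5 lay above those of Psmb6 and Psmb7, which overlap each other, and Psmb5 took 11.7% of their summed counts (exact binomial interval 11.0 to 12.4) against 9.60% (8.97 to 10.3). Of the structural beta subunits, Psmb3 was at a ratio of 1.25, Psmb4 at 1.17 and Psmb2 at 1.13. Psmb3 also shares near-identical stretches with annotated pseudogenes. Psmb1 was the only core gene below the median of all genes, with 88.8 against 91.6 CPM and a ratio of 0.970 (0.927 to 1.01), an interval that includes 1.

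Immunoproteasome genes lay among those of the constitutive core. Psmb8, which takes the place of Psmb5, had 2803 counts against 2735, 70.6 against 57.1 CPM, a ratio of 1.24 (1.17 to 1.30). Psmb9, which takes the place of Psmb6, had 1048 counts against 1001, 26.4 against 20.9 CPM, a ratio of 1.26 (1.16 to 1.38). Both were higher in the P95H library under all 3 scalings. Psmb10, which takes the place of Psmb7, had 1284 counts against 1516, 32.3 against 31.7 CPM, and its ratio of 1.02 (0.948 to 1.10) did not differ from 1 beyond counting error. The activator genes Psme1 and Psme2 had ratios of 1.07 (1.03 to 1.11) and 1.17 (1.10 to 1.25), from 119 against 111 CPM and 48.7 against 41.6 CPM. Exons of Psmb9 overlap those of Tap1 on the other strand, those of Psme1 overlap Emc9, those of Psmb8 a predicted gene, and Psme2 has the near-identical copy Psme2b. The labels and headers do not say whether counting used strand, so the reads of these 4 genes are less certain than those of Psmb10.

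The balance of exchangeable catalytic subunits within a library does not depend on scaling. Psmb8 made up 76.0% of the summed counts of Psmb8 and Psmb5 (exact binomial interval 74.6 to 77.4) against 78.0% (76.6 to 79.3). This share also depends on how reads of Psmb5 and its near-identical copy were counted. The share of Psmb9 with Psmb6 was 23.9% (22.6 to 25.2) against 21.0% (19.8 to 22.2). For Psmb10 with Psmb7 it was 27.7% (26.4 to 29.0) against 30.3% (29.0 to 31.5). The share was thus lower in the P95H library for Psmb8 and Psmb10 and higher for Psmb9, by 2 to 3 percentage points each. The intervals of the 2 libraries overlap for the pairs with Psmb8 and, narrowly, Psmb10, and do not for the pair with Psmb9. Exons of Psmb9 overlap those of Tap1 and exons of Psmb8 a predicted gene, as given above, and exons of Psmb7 overlap those of Nek6. The shares of all 3 pairs thus also depend on how such reads were counted, which was not tested. Overlap of separate intervals does not by itself place a difference within counting error, and no difference was tested. Summed over the 3 pairs the immunoproteasome share was 40.4% (39.5 to 41.2) against 39.5% (38.7 to 40.4), with intervals that also overlap. No common shift toward immunoproteasome subunits was detectable in these 2 libraries.

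**Figure D4:**
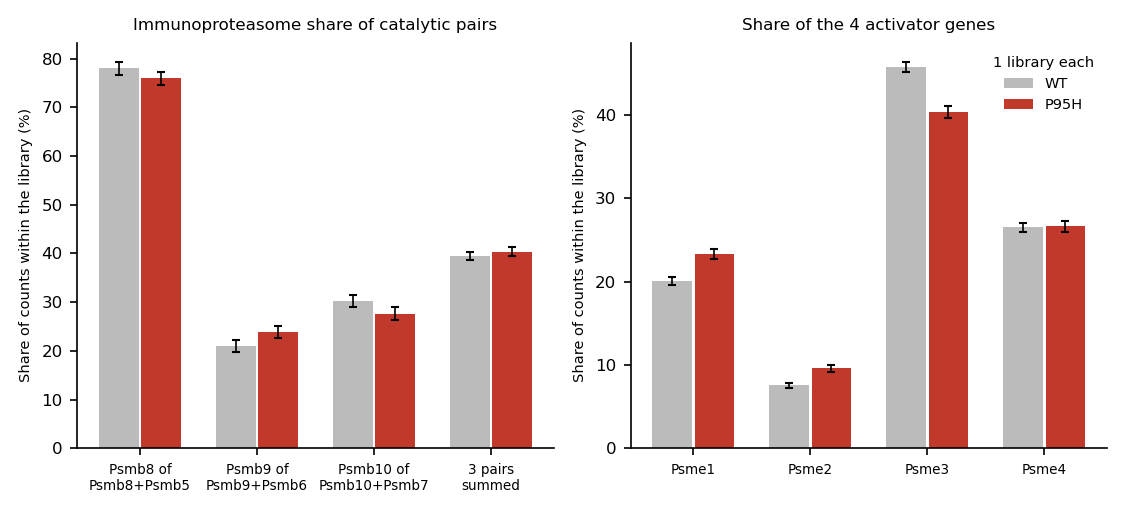
Shares of counts within each library (%), for each immunoproteasome catalytic gene in the sum with its constitutive partner (left) and for the 4 activator genes (right), with WT in grey, P95H in red and exact 95% binomial intervals. The pairs differ by small amounts in opposing directions, and Psme3 stands at 45.8% in the WT library and at 40.4% in the P95H library.

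Levels of different genes were set side by side per kilobase of merged exons of coding transcripts in a GENCODE annotation of GRCm38, which is not the build named by the submitters. On that scale Psmb6 stood at 105 and 98.7 CPM per kilobase, and Psmb9 at 15.7 and 12.4. Psmb7 stood at 72.9 and 62.9 CPM per kilobase, and Psmb10 at 24.7 and 24.2. The order was reversed in the remaining pair, with Psmb8 at 42.3 and 34.2 CPM per kilobase and Psmb5 at 24.8 and 17.9. In both libraries, then, the immunoproteasome gene exceeded its constitutive partner per length for Psmb8 and not for Psmb9 or Psmb10. Psmb5 has 899 such exon bases and shares a near-identical stretch of up to 796 bases with a gene elsewhere. Split reads could thus have changed its level and the order of this pair, which was not tested.

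**Figure D5:**
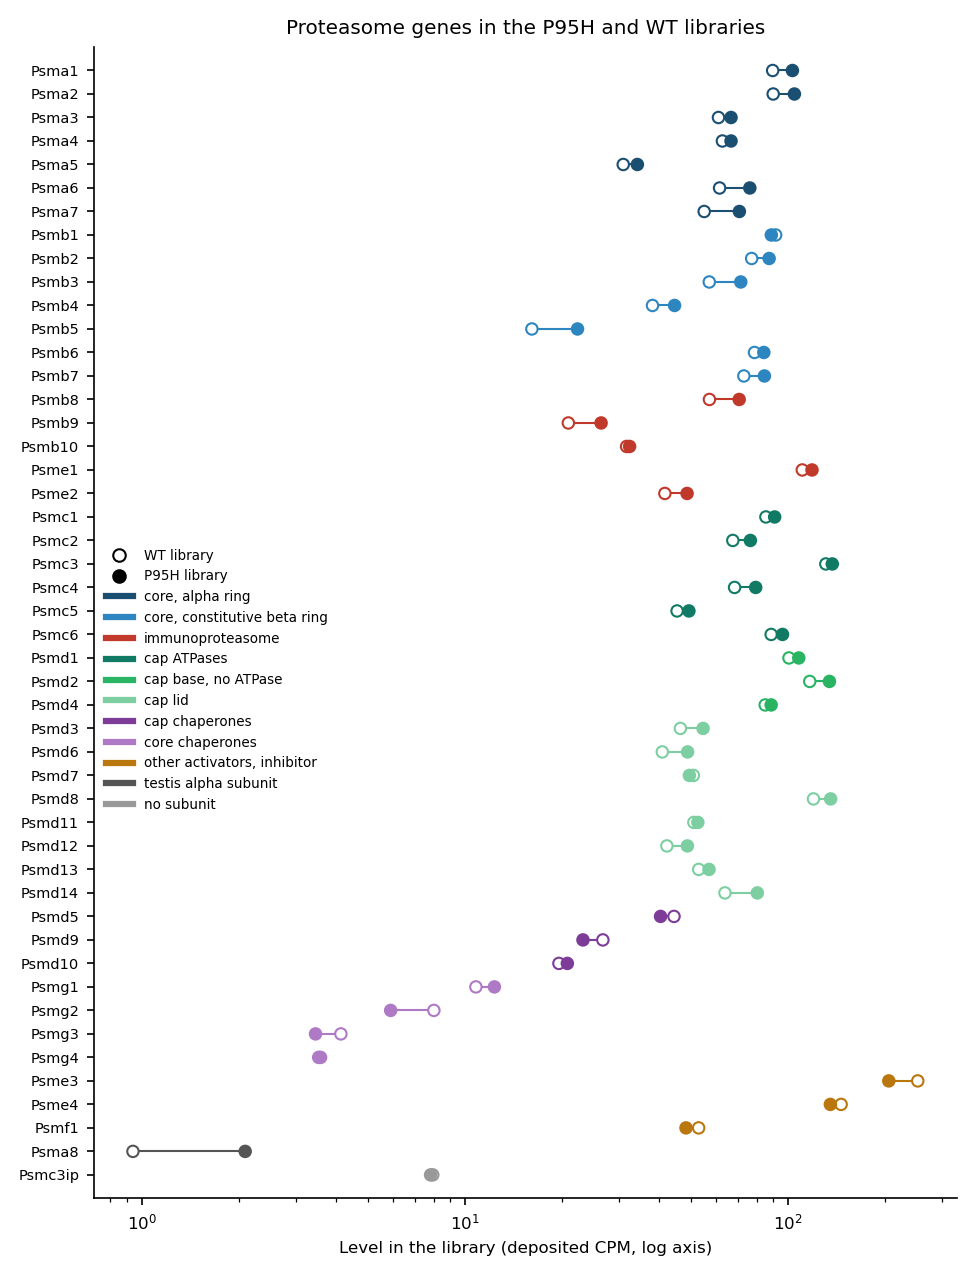
Deposited CPM (log axis) of the 48 genes in the WT library (open circles) and the P95H library (filled circles), joined by a line and coloured by role; CPM is not corrected for gene length. Filled circles lie to the right for most subunits, and to the left for 10 genes: Psme3, Psme4, Psmf1, Psmd5, Psmd9, Psmg2, Psmg3, Psmb1, Psmd7 and Psmc3ip.

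Cap genes had the narrowest spread by the middle 50% of their differences, which spanned 0.12, against 0.15 in the core and 0.20 in the immunoproteasome. The 6 ATPases that unfold the substrate had ratios from 1.05 (Psmc3) to 1.16 (Psmc4), all above the median of all genes. Psmc4 had 3153 counts against 3272, 79.4 against 68.3 CPM, a ratio of 1.16 (1.11 to 1.22). Psmc3 had 5441 counts against 6269, 137 against 131 CPM, a ratio of 1.05 (1.01 to 1.09). Psmc1, Psmc2, Psmc5 and Psmc6 lay between, at 1.06, 1.13, 1.09 and 1.08, and of the 6 only Psmc4 was above 0 under all 3 scalings. On plain totals Psmc4 was at 0.02 and Psmc2 at -0.01, both near 0. The non-ATPase genes of the base were Psmd2 at a ratio of 1.15 (1.11 to 1.19), Psmd1 at 1.07, and the ubiquitin receptor gene Psmd4 at 1.04 (0.997 to 1.09). Psmc1 and Psmd2 share near-identical stretches with genes elsewhere, so their reads could have been split.

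The lid holds the enzyme that removes ubiquitin from the substrate, Psmd14, and its binding partner Psmd7, and these were the highest and lowest of the 8 lid genes with Psm names. Psmd14 had 3190 counts against 3055, 80.4 against 63.8 CPM, a ratio of 1.26 (1.20 to 1.32). Psmd7 had 1966 counts against 2439, 49.5 against 50.9 CPM, a ratio of 0.972 (0.916 to 1.03). The counting intervals of the pair do not overlap, and Psmd7 was the single cap gene below the median of all genes. The scaffold genes of the lid lay between, Psmd6 at a ratio of 1.20, Psmd3 at 1.18, Psmd12 at 1.16, Psmd8 at 1.13, Psmd13 at 1.08 and Psmd11 at 1.03 (0.970 to 1.09). Psmd11 shares near-identical stretches with genes elsewhere, so its reads could have been split. Within the summed counts of core and cap, the core took 42.0% (exact binomial interval 41.7 to 42.3) against 41.2% (40.9 to 41.5).

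Activators and the inhibitor outside the immunoproteasome were lower in the P95H library. Psme3, the nuclear activator that promotes degradation without ubiquitin, had 8139 counts against 12067, 205 against 252 CPM, a ratio of 0.814 (0.791 to 0.837). Psme4, a nuclear activator linked to histone turnover, had 5367 counts against 6990, 135 against 146 CPM, a ratio of 0.926 (0.894 to 0.960). Psmf1, first described as an inhibitor of the core, had 1919 counts against 2533, 48.3 against 52.9 CPM, a ratio of 0.914 (0.861 to 0.970). Within the 4 activator genes, a measure free of scaling, Psme3 took 40.4% of counts (39.7 to 41.1) against 45.8% (45.2 to 46.4). Psme1 took 23.4% (22.8 to 24.0) against 20.1% (19.6 to 20.6) and Psme2 9.60% (9.20 to 10.01) against 7.56% (7.24 to 7.88), while the share of Psme4 was 26.6% against 26.5%, with intervals that overlap.

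Assembly chaperones did not share a direction. Psmg1 and Psmg2, whose products form a dimer that starts the alpha ring, lay on opposite sides. Psmg2 had 234 counts against 384, 5.89 against 8.02 CPM, and its ratio of 0.735 (0.622 to 0.867) was the lowest of the 48 genes. Psmg1 had 490 counts against 518, 12.3 against 10.8 CPM, a ratio of 1.14 (1.01 to 1.29). The other dimer of this kind, Psmg3 and Psmg4, had ratios of 0.835 (0.666 to 1.04) and 1.01 (0.805 to 1.27) from 137 to 198 counts a library, a depth at which neither differs from 1 beyond counting error. Of the chaperones that hold cap ATPases before assembly, Psmd9 was at a ratio of 0.868 (0.797 to 0.945), Psmd5 at 0.909 (0.851 to 0.970) and Psmd10, also known as the oncoprotein gankyrin, at 1.06 (0.966 to 1.17). Psmg1, Psmg4 and Psmd10 had a sign that depended on the scaling. The 7 chaperones took 3.44% of the counts of the 4 groups (3.34 to 3.54) against 3.95% (3.85 to 4.05). Together with Psme3, Psme4 and Psmf1, which hold most of the counts, all 10 genes took 15.6% (15.4 to 15.8) against 19.1% (18.9 to 19.3).

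Psma8, the alpha subunit of the testis proteasome, which stands in for Psma7, was near the limit of detection. It had 83 counts against 45, 2.09 against 0.940 CPM, a ratio of 2.22 (1.53 to 3.27). Its difference on log2(CPM + 1) was 0.67, which becomes at least 2-fold with a pseudocount of 0.1. Psma8 made up 2.87% of the counts of Psma7 and Psma8 (2.29 to 3.55) against 1.68% (1.23 to 2.24). Psmc3ip had 311 counts against 381, a ratio of 0.985 (0.845 to 1.15).

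Proteasome genes with other names were read from a separate list of partners. Of its 8 measured genes 7 lay above the median of all genes, with a median difference of 0.14. The small lid subunit Sem1 had 11090 counts against 8869, a ratio of 1.51 (1.47 to 1.55), above that of every Psm subunit of the core and cap. Pomp, which guides the assembly of the core, was at 1.15 (1.08 to 1.22), and the cap deubiquitinases Uchl5 and Usp14 were at 1.18 (1.12 to 1.25) and 0.978 (0.924 to 1.03). The ubiquitin receptor gene Adrm1 was at 1.03 (0.964 to 1.10).

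Genes listed for control of subunit genes or for bringing substrates did not share a direction. Nfe2l1 had 2842 counts against 3333, a ratio of 1.03 (0.978 to 1.08), and Ddi2, the protease that activates its product, was at 1.18 (1.10 to 1.27). Their list had a median difference of 0.10, with 5 of 8 genes above the median of all genes, and ran from Maf at -0.83 to Mafg at 0.63. Whether Maf acts on subunit genes was not tested. Apart from Maf, the genes below were Ngly1 at a ratio of 0.935 (0.873 to 1.001) and Mafk at 0.970 (0.936 to 1.005). Both intervals include 1. Among 10 genes of shuttle factors and the p97 segregase 6 lay above, with a median of 0.05. The stress-induced gene Zfand2a was highest at a ratio of 1.69 (1.60 to 1.79). The 6 genes of ubiquitin and its activating enzymes had a median of 0.05, with Uba1, which starts the ubiquitin cascade, at a ratio of 1.28 (1.25 to 1.31).

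Of 13 listed interferon and peptide loading genes 11 lay above the median of all genes, with a median difference of 0.22, as for the immunoproteasome. Psmb8 and Psmb9 lie beside the peptide transporter genes Tap1 and Tap2 in the RefSeq gene order. Tap1 had 2748 counts against 2254, a ratio of 1.47 (1.39 to 1.56), and Tap2 2292 against 2045, a ratio of 1.35 (1.27 to 1.44). The interval of Tap1 lies above that of both Psmb8 and Psmb9. The interferon-induced factor gene Irf1 was at a ratio of 1.05 (1.00 to 1.10) and Nlrc5, an activator of MHC class I genes, at 1.00 (0.912 to 1.10), while Irf8 was at 0.615 (0.590 to 0.641).

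Markers of several marrow cell types differed between the libraries. The median difference was 0.91 for neutrophil, -1.75 for B cell, -1.38 for natural killer cell and -0.59 for erythroid markers, while those of T cell (-0.42) and monocyte (0.09) markers were smaller in size. Natural killer and T cell markers had low CPM, so this scale understates their differences. The ratio of summed CPM was 0.22 for natural killer, 0.36 for B cell, 0.57 for erythroid and 0.69 for T cell markers. The summed CPM of 12 neutrophil markers was 109043 against 56849, with 12 of 12 above the median of all genes. The 7 B cell markers summed to 507 against 1398 CPM with 0 of 7 above, the 7 erythroid markers to 6539 against 11437 with 0 of 7, the 5 natural killer cell markers to 4.51 against 20.9 with 0 of 5, and the 5 T cell markers to 11.7 against 17.0 with 0 of 5. The 6 monocyte markers summed to 1044 against 849.5 CPM, with 3 of 6 above. No listed marker was at 0 counts in either library. The part of these cell types in the proteasome differences was not tested.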

How the data were processed

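Whole bone marrow RNA from 1 P95H and 1 WT mouse was depleted of ribosomal RNA and sequenced as stranded paired-end libraries on 1 run, per the labels' protocols. Tools named in the submitters' processing notes are STAR 2.5.3a, featureCounts, edgeR, Picard 1.96, cutadapt and Trim Galore, with build mm9 and no roles given. Raw read counts per gene and CPM were deposited by the authors, per the file headers. The CPM columns, a normalised signal that the authors deposited, sum to 1067265 (P95H) and 934268 (WT), so that counts divided by CPM give effective sizes of 39696495 and 47880724 reads. The authors also deposited a log2 fold change, a linear fold ratio and a mean CPM, which were not used.

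With 1 library per group no test was run. Differences were taken on log2(CPM + 1), and 2-fold means a difference of at least 1 in size. Ratios have exact conditional binomial intervals and shares Clopper-Pearson intervals at 95%, for counting error only, since reads without molecular identifiers are not independent molecules. The ratio intervals and the 2-fold size were tried on simulated counts that held counting error only. The other steps were not tested in this way. All genes that match the name rule, and listed partner and marker genes, may be named. Members and lists were chosen with earlier results of these data known. Listed genes were matched by symbol or RefSeq synonym, and 1 (Paaf1) had no match. Of 50 subunit names listed, 2 (Psmb11 and Psme2b) were not in the table. Gene lengths, overlapping exons and, with BLAST 2.17.0, near-identical stretches of at least 75 bases at 97% identity came from GENCODE M21 (GRCm38). Of the 48 genes 9 had such a copy, 14 overlapped another gene's exon and 28 had neither. Promoters came from RefSeq (GRCm38.p6). Python 3.11.15, scipy 1.17.1 and pandas 2.3.3 were used. Some listed genes are not reported here.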

Additional observations from a re-analysis of the deposited data

How the results depend on the processing

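No paired analysis was possible because each group has 1 library, and no library could be left out. With plain totals the median differences were -0.065 for all 48 genes, 0.015 for the constitutive core, 0.036 for the immunoproteasome, -0.069 for the cap and -0.32 for chaperones and other regulators, and 18 genes lay above 0 in place of 38. When haemoglobin and the 20 top genes of each library were left out of the totals they were -0.013, 0.068, 0.088, -0.017 and -0.27, with 23 genes above 0. The shift of the median of all genes was -0.17 and -0.13. A CPM of at least 10 in 1 library left 43 genes with a median of 0.14, and the cap had a mean of 0.14. A pseudocount of 0.1 and the 1.5-fold size each gave 1 gene in place of 0 (Psma8). Among the 28 genes with no near-identical copy and no overlapping gene, an alternative chosen after seeing the data, the median was 0.15, that of 10 cap genes 0.18, and 21 lay above the median of all genes. The pseudocounts and centring on the median of all genes moved each gene's difference by less than its counting error on the log2 scale, Psma8 most, to 0.26 with a pseudocount of 5. Psmg3, Psmg4 and Psma8, with 45 to 198 counts a library, are limited by depth.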
